A study of Mus musculus with 2 samples.

Results

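Predicted genes, meaning annotated genes that carry a numbered Gm name or a RIKEN clone name ending in Rik, were examined in long reads of mouse gastrocnemius muscle. Genes were selected on their read count, at least 20 reads summed over both libraries, and 4 such genes were set aside by name. This gave 244 genes of the 14900 annotated genes with reads, 137 named Gm and 107 named Rik. Since the genes were chosen by summed reads, those are a description and not a finding. Of the 2055 Gm and Rik genes with any read (without the 4 set aside), 1500015O10Rik with 9 reads in replicate 2 and 11 in replicate 1, 2310009B15Rik with 8 and 12, and 2610021A01Rik with 14 and 6 lay just inside the limit. Just outside it lay 1500026H17Rik with 6 and 13 reads, 2410006H16Rik with 2 and 17, and 2700081O15Rik with 13 and 6. In all, 9 genes had exactly 20 reads and 13 had 19.

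Gm and Rik names are placeholders given to gene models and sequenced clones before a function is known. They cover genes of very different kinds: coding genes that were never renamed, long non-coding RNAs (transcripts without a recognised protein), and pseudogenes. A processed pseudogene arises when a spliced messenger RNA is copied back into the genome, so it resembles the joined coding exons of its parent gene and has no introns of its own. Long reads cover most or all of a transcript, so each read shows whether exons were joined.

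Both libraries were made from the gastrocnemius, a calf muscle of mainly fast fibres, of male mice of the B6CASTF1/J hybrid (C57BL/6J crossed with CAST/EiJ) aged 18 to 20 months, each from 2 µg of total RNA. They form a single group, biological replicates 2 and 1, with no treatment and no control. Both carry the same donor label and name the same pair of animals, and whether a library is 1 mouse or a pool is not given, so the differences below measure only the spread between these libraries. Replicate 2 had 1173233 reads and replicate 1 had 1509380, of which 0.590% and 2.71% fell on spike-in controls. A count of 0 allows up to 3 reads, or 2.56 CPM in replicate 2 and 1.99 CPM in replicate 1 (CPM, reads per 1000000 reads in the table). Muscle fibre markers (8 of 8 with reads) summed to 317558 CPM in replicate 2 and 319375 in replicate 1, and 3 of 4 brain or testis markers (Snap25, Gfap and Tnp1) had no read. Slow fibre markers (5 of 5 with reads) summed to 3926 CPM in replicate 2, against 268 CPM in replicate 1. Smooth muscle and pericyte markers (4 of 4) summed to 391 and 197 CPM, and endothelial markers (5 of 5) to 102 and 37.8 CPM. Across the 9032 genes with at least 10 reads the chi-square per degree of freedom between the libraries was 13.4.

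The sequences that matter most here are those of the copies, because the most read Gm genes differ from their parent gene by few bases or none. Gapdh encodes the glycolytic enzyme glyceraldehyde-3-phosphate dehydrogenase. Its 1002 coding bases are matched without a difference by Gm12671 (chr4:91851668-91852669, minus strand), and with 1 substitution each by Gm5559 (chr5:95861714-95862715, plus strand), which carries T385A, and Gm12033 (chr11:20335012-20336013, minus strand), which carries T504C. Positions count from 1 at the first base of the start codon, the parent's base comes first, and coordinates are those of GRCm38 (mm10). Bases 365 to 405 and 484 to 524 of the coding sequence are shown 5′ to 3′, with the differing base in capitals.
Gapdh, bases 365 to 405: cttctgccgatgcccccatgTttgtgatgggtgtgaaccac
Gm12671, bases 365 to 405: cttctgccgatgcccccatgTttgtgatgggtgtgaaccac
Gm5559, bases 365 to 405: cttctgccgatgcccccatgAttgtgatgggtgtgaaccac
Gm12033, bases 365 to 405: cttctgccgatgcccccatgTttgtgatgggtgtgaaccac
Gapdh, bases 484 to 524: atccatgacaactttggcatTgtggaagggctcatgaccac
Gm12671, bases 484 to 524: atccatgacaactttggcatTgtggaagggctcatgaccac
Gm5559, bases 484 to 524: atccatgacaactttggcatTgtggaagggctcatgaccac
Gm12033, bases 484 to 524: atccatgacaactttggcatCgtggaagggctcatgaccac

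Hspa8, which encodes a constitutive heat shock protein of the HSP70 family, is matched over all 1941 coding bases by Gm15459 (chr5:5781615-5783555, minus strand). The copy carries 5 substitutions, G114A, C414T, C549T, G1222A and C1440T. Bases 394 to 434 around the second of them are shown with the differing base in capitals.
Hspa8, bases 394 to 434: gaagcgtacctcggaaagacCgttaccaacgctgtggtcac
Gm15459, bases 394 to 434: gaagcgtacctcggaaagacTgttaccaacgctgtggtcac

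Another copy without a difference is Gm10925 (chr1:24613974-24614651, minus strand), which equals mt-Atp6, a mitochondrially encoded subunit of ATP synthase, over 678 bases. Its first bases are shown, and no capitals are used because no base differs.
Gm10925, bases 1 to 90: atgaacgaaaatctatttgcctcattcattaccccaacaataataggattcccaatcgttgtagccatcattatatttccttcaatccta

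The 244 genes comprised 108 annotated as protein-coding with 10600 reads, 70 pseudogenes with 15212 reads, 64 long non-coding genes with 2778 reads, 1 gene of the class still to be tested by experiment (Gm37829, 22 reads in replicate 2 and 37 in replicate 1) and 1 of another type (Gm28006). They held 12258 reads in replicate 2 and 16979 in replicate 1, or 1.09% and 1.18% of the reads on annotated genes. Reads were concentrated: the 10 most read genes held 40.2% of the 29237 reads, the median gene had 47, and 126 genes had 20 to 49. Those 10 comprised 6 pseudogenes, 3 coding genes and Gm28006.

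**Figure D1:**
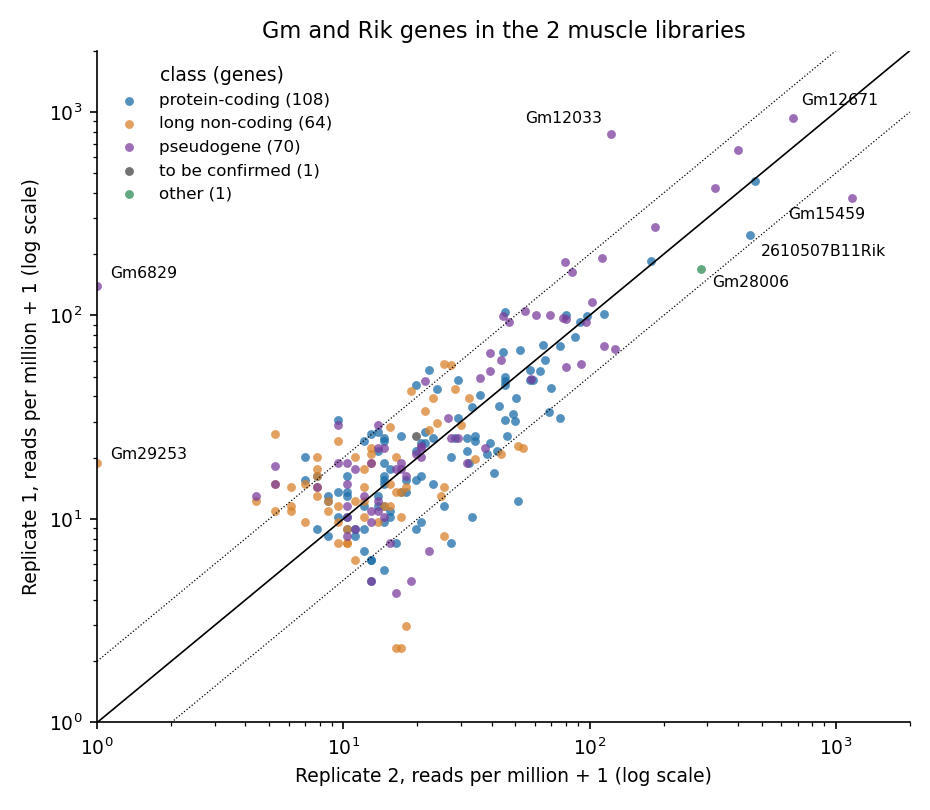
CPM plus 1 of each of the 244 Gm and Rik genes in replicate 2 (x axis) and replicate 1 (y axis), both on log scales and coloured by annotated class. The solid line marks equal levels and the dotted lines a 2-fold difference. Gm15459 lies on the replicate 2 side, Gm12033 on the replicate 1 side, and Gm6829 and Gm29253, with no read in replicate 2, lie on the left edge.

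Most of the pseudogenes resemble other genes closely. Of the 70 pseudogenes, 64 matched a coding or mitochondrial gene elsewhere in the genome on the same strand, at 95% identity or more. The match covered at least 90% of 1 transcript, the most read annotated one or, where none was read, the longest. Matched in the same way were 6 genes annotated as coding and 1 long non-coding gene. This makes 71 matched genes with 6047 reads in replicate 2 and 9585 in replicate 1. Identity reached 99% in 60 of the 71, and 23 had no mismatch and no gap. They matched 60 different genes, and in 11 of these the matched Gm genes had more reads than the gene itself. One of the 11 rests on Gm6829, whose reads lie almost all outside its annotated exon, and without it the number is 10. The deposited tables hold no base calls, so whether a read carried the bases of the copy or of the gene was not tested.

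Gapdh had by far the most reads on copies. Its 9 Gm copies had 1913 reads in replicate 2 and 4402 in replicate 1, against 23 and 40 reads counted under Gapdh itself. The copies thus took 98.8% of the family's 1936 reads in replicate 2 and 99.1% of its 4442 reads in replicate 1. Gm12671 had 785 reads in replicate 2 and 1410 in replicate 1, the most of the 244 genes when summed. Gm5559 had 468 and 976, and Gm7336 (chr7:51746647-51747878, plus strand), whose 1232 bases match Gapdh at 99.76%, had 378 and 635. Those 3 copies kept the same order in both libraries, and Gm12033 moved relative to them. Gm12033 made up 7.33% of the family in replicate 2 (exact 95% interval 6.21 to 8.59%) and 26.6% in replicate 1 (25.3 to 27.9%). Gm13394 had 107 reads in replicate 2 against 86 in replicate 1, and Gm10359, a second copy without a difference, had 10 and 42. The intervals here cover counting error only.

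The Hspa8 copy went the other way. Gm15459 had 1371 reads in replicate 2 against 567 in replicate 1, and Hspa8 itself had 1629 and 1758. The copy therefore held 45.7% of the pair's reads in replicate 2 and 24.4% in replicate 1 (exact interval 22.7 to 26.2%). Between the libraries Gm15459 was 3.11-fold higher in replicate 2 (exact interval 2.82 to 3.44; Fisher's exact test, adjusted p = 4.85e-125), and Hspa8 was not called, with a log2 ratio of 0.25.

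Copies of genes for the respiratory chain and ATP synthase formed a further group, the machinery by which mitochondria make ATP. Gm12338, which matches the cytochrome c oxidase subunit gene Cox7c without a difference, had 216 reads in replicate 2 and 410 in replicate 1. Cox7c had 451 and 925. Gm14539 had 130 and 288 reads, against 420 and 898 on its match Usmg5, which encodes a small protein of ATP synthase. In both pairs the copy's share stayed within the counting intervals of the libraries, at 32.4% and 30.7% for Gm12338 and at 23.6% and 24.3% for Gm14539. Atp5g2, for a subunit of the ATP synthase rotor, had fewer reads (70 and 186) than its copies Gm10231 and Gm10175 together (131 and 300). Gm11273, annotated as coding and listed by RefSeq as Cox5b-ps, had 106 reads in replicate 2 and 139 in replicate 1, all with 1 exon, against 355 and 641 on the cytochrome c oxidase gene Cox5b.

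A block of chromosome 1 held copies of mitochondrially encoded genes side by side on the minus strand. These were Gm28437 (chr1:24613189-24613971), Gm10925, Gm28661 (chr1:24614885-24615565) and Gm29216 (chr1:24615706-24616197), which match the mt-Co3, mt-Atp6, mt-Co2 and mt-Co1 genes. Gm10925 had 119 reads in replicate 2 against 173 in replicate 1, and mt-Atp6 had 151 and 149. Gm28437 had 133 and 105 against 117 and 116 on mt-Co3, and Gm28661 had 93 and 83 against 93 and 63 on mt-Co2. For these 3 genes the copy held between 44.1% and 56.8% of the reads. Gm29216, which matches mt-Co1 at 99.79%, had 148 reads in replicate 2 and 102 in replicate 1. Together with Gm13340 on chromosome 2 it held 12.3% and 9.61% of the mt-Co1 reads.

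Ribosomal protein genes gave the largest number of copies, 22 copies of 21 genes. Gm15500, which matches Rpl5 without a difference, had 92 reads in replicate 2 and 276 in replicate 1, against 170 and 405 on Rpl5. Gm14303 had 98 and 246, against 107 and 268 on Rps29, which encodes a protein of the small ribosomal subunit, or 47.8% and 47.9% of the pair. Copies had more reads than the gene for Rpl21 (104 and 173 against 11 and 32), Rpl35a (54 and 139 against 11 and 32) and Rpl30 (24 and 70 against 8 and 9). The share of reads on a copy thus differed from gene to gene.

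**Figure D2:**
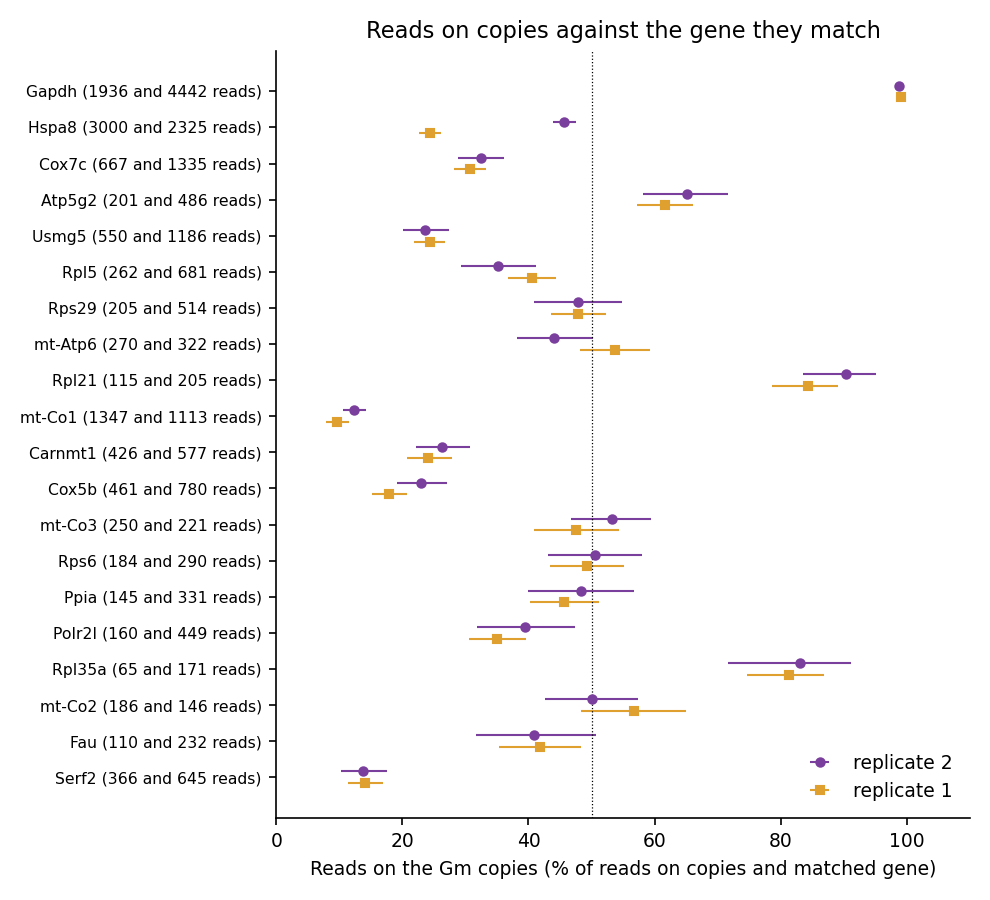
Percentage of reads counted on the Gm copies, out of reads on copies and matched gene together, for the 20 matched genes with the most copy reads (Gm6829 and its match left out, as nearly all its reads touched none of its exons), with exact 95% intervals that cover counting error. Numbers beside each gene are the summed reads in replicate 2 and replicate 1. Gapdh sits near 99% in both libraries, and Hspa8 is the pair whose libraries lie farthest apart, at 45.7% in replicate 2 and 24.4% in replicate 1.

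Other matches were to genes of varied function. Gm10123 had 70 reads in replicate 2 and 151 in replicate 1, against 75 and 180 on Ppia, the gene of the prolyl isomerase cyclophilin A. Gm8116 had 112 and 139, against 314 and 438 on Carnmt1, the carnosine N-methyltransferase gene. Gm12481 (Serf2) had 50 and 90. Gm14325, of the coding class, had 56 and 48 reads, against 8 and 11 on its match Zfp931. Gm14326, of the same class, had 37 and 27, against 0 and 2 on Zfp968, so the Gm genes carried most of these reads. Both have several exons, and only 1 transcript of each was matched. It has 310 bases in Gm14325, out of 1616 exon bases, and 767 in Gm14326, out of 2863. Whether these 2 genes are copies of their matches was not tested.

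Among the coding genes, the Rik names covered ordinary multi-exon genes. 4833439L19Rik (chr13:54551218-54565435, minus strand) had 553 reads in replicate 2 and 693 in replicate 1, or 471 and 459 CPM, the most of the coding class. Only 63 and 70 of these reads followed an annotated transcript, while 409 and 502 joined annotated splice sites in a new combination. 2610507B11Rik (chr11:78261752-78290623, plus strand) had 527 and 374 reads. It has 39 annotated exons, the most of the 244 genes, and its reads held 34.1 exons on average. 2310022A10Rik had 208 and 279 reads with 8.25 exons on average, and 5031439G07Rik had 113 and 148 with 8.97. 0610012G03Rik (chr16:31947050-31948494, minus strand) is annotated with 1 exon, and all its 93 and 150 reads had 1 exon.

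RefSeq lists 190 of the 244 names as symbols and 16 as older names of a gene since renamed. 2410015M20Rik is now Micos13, for a subunit of the complex that shapes the inner mitochondrial membrane, and had 60 reads in replicate 2 and 100 in replicate 1. 1110008L16Rik is Prorp, the catalytic subunit of mitochondrial RNase P, with 18 and 10 reads. 1700021F05Rik is Mtres1, a factor of mitochondrial transcription, with 76 and 90. 2010111I01Rik is Aopep, an aminopeptidase gene, with 47 and 24. These levels were low beside those of the most read copies.

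The long non-coding genes were read at low level. The most read were 2310040G24Rik with 31 reads in replicate 2 and 85 in replicate 1, Gm42418 with 29 and 86, 2210408F21Rik with 32 and 64, 1810058I24Rik with 37 and 58, and B230354K17Rik with 62 and 32. Gm42418 (chr17:39846958-39848788, plus strand) is listed by RefSeq as Rn18s-rs5, a locus related to 18S ribosomal RNA, and all its reads had 1 exon. 1810058I24Rik had 1 single-exon read in replicate 2 and 3 in replicate 1, with 2.89 exons per read on average.

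Gm28006, a 122-base RNA on the minus strand of chromosome 19 (chr19:5844916-5845037), lies inside Neat1, the long non-coding RNA that builds nuclear paraspeckles. It is shown whole because it had more reads than its host: 333 in replicate 2 and 255 in replicate 1, against 74 and 45 on Neat1.
Gm28006, bases 1 to 122: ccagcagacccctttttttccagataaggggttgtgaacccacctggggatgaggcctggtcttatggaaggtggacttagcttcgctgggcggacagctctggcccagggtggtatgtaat
All reads of Gm28006 had 1 exon, as did 70 of the Neat1 reads in replicate 2 and 39 in replicate 1. The 122 bases are the length of the annotated model, not of the reads. Whether reads of Neat1 are among those counted under Gm28006 was not tested. The log2 ratio of Gm28006 was 0.75 and missed the 2-fold limit (Fisher's exact test, adjusted p = 1.07e-08), while Neat1 passed it at 1.06 (adjusted p = 0.000667). After centring on transcript length Gm28006 was called too, at a log2 ratio of 1.28.

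Annotated exons were fewer than in the pooled other genes. Of the 244 genes, 80 (32.8%) are annotated with 1 exon, against 145 (2.08%) of the 6978 other annotated genes with at least 20 reads. By class this was 61 of 70 pseudogenes, 9 of 108 coding genes and 8 of 64 long non-coding genes. Within a class the shares were 87.1% of the pseudogenes against 92.9% of other pseudogenes, 8.33% of the coding genes against 1.41%, and 12.5% of the long non-coding genes against 8.82%. The median was 3 annotated exons against 9 in the other genes, and a further 92 genes had 2 to 4 exons, 55 had 5 to 9 and 17 had 10 or more. The most read annotated transcript had a median length of 1094 bases against 2741 bases in the other genes. The highest exon number of any read was above that of every annotated transcript in 82 genes, equal to the highest annotated number in 126 and below it in 36. For this count 1 read was enough, as in Gm12671, with 1 spliced read among 2195. The share among the other genes is not given.

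Single-exon reads made up 59.9% of the reads of the 244 genes in replicate 2 (exact 95% interval 59.0 to 60.7%) and 64.6% in replicate 1 (63.9 to 65.3%), a mean of 62.2% ± 3.35 (SD, n = 2 libraries). The other genes had 3.86% and 4.53%, a mean of 4.2% ± 0.471 (SD, n = 2). The gap was larger than the spread between libraries. Among the 3 main classes pseudogenes had the highest share, 98.0% of reads in replicate 2 and 96.5% in replicate 1. The median gene had 18.2% single-exon reads, against 3.12% in the other genes.

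Within a class the picture differed. Coding Gm and Rik genes annotated with 2 or more exons had 8.78% single-exon reads in replicate 2 and 11% in replicate 1, against 2.91% and 3.64% in other coding genes of that kind. The median gene had 3.03% and 6.67%, against 1.49% and 3.39%, and 5 annotated exons against 10. Of the 400 and 571 single-exon reads pooled here, Gm20388 gave 65 and 75 and Gm45692 39 and 37. Most or all reads of these 2 genes touched none of their exons. Long non-coding genes with 2 or more exons had 34.0% and 26.0%, and the 31 other long non-coding genes of that kind had 30.5% and 29.2%, a difference within the spread between libraries. Pseudogenes of any exon number had 98.0% and 96.5%, and the 42 other pseudogenes had 94.7% and 94.0%. Genes are not replicates, so no test was run across them.

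**Figure D3:**
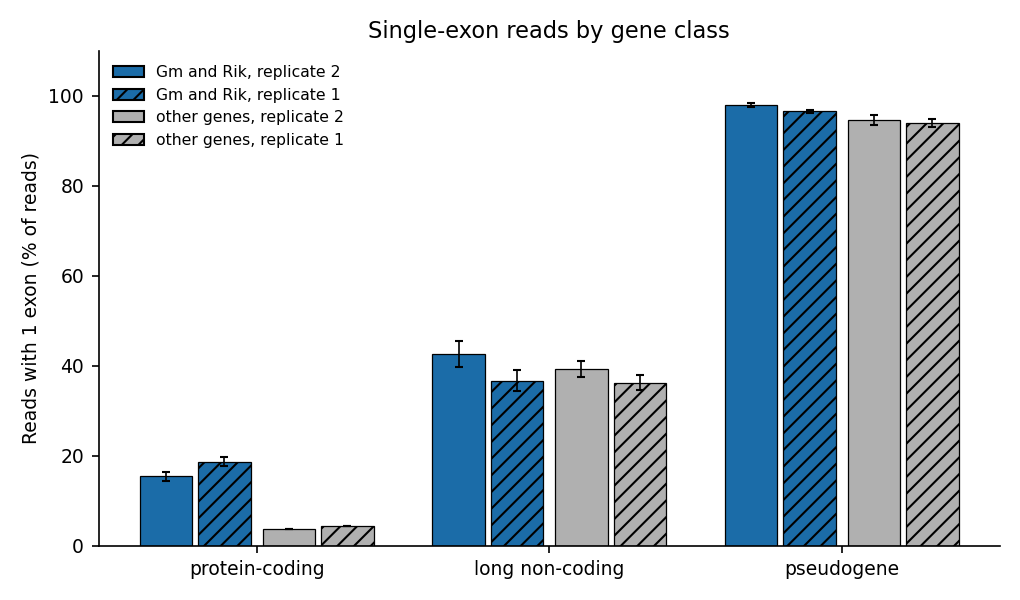
Percentage of reads with 1 exon in replicate 2 (plain bars) and replicate 1 (hatched bars) for Gm and Rik genes (blue) and other annotated genes with at least 20 reads (grey) of the same class, with exact 95% intervals for counting error. Coding Gm and Rik genes reached 15.4% and 18.6%, against 3.65% and 4.29% in other coding genes, and the long non-coding classes lay close together.

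Spliced and single-exon reads did not always follow the annotation. Of the 80 genes annotated with 1 exon, 67 had no spliced read and 13 had at least 1. Among the 145 other genes annotated with 1 exon, 122 had no spliced read. Of the 164 annotated with 2 or more exons, 28 had no single-exon read, 28 had at least as many single-exon as spliced reads, and 13 had no spliced read at all. Among the 6833 other genes annotated with 2 or more exons these numbers were 1424, 204 and 15. The 28 genes with at least as many single-exon as spliced reads comprised 17 long non-coding, 8 coding and 3 pseudogenes. They were 17.1% of the 164, against 2.99% of the 6833 other genes. Within a class they were 30.4% of the 56 long non-coding genes, against 29% of 31 others. In the coding class they were 8.08% of 99 genes, against 2.84% of 6798 others. In 13 of the 28 every read was on models of the class that the deposited tables call Genomic. In 18 of the 28 no read followed an annotated transcript, and 13 share exon bases with a coding gene.

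Of those 28 genes, 7 lie opposite a coding exon, and some face strongly expressed muscle genes. A930016O22Rik (chr7:19417466-19421417, minus strand) shares 451 exon bases with Ckm, the muscle creatine kinase gene, on the other strand. It had 29 reads in replicate 2 and 11 in replicate 1, all of the Genomic class, against 58438 and 99344 on Ckm. Gm13601 faces Xirp2, an actin-binding protein gene of striated muscle, with 18 and 2 reads against 508 and 425. Gm28376 faces Jph1, a junctophilin that holds the muscle triad together, with 39 and 28 reads against 252 and 223. Gm13008 had 29 and 20 reads opposite Eloa, and Gm15283 had 20 and 3 opposite Hif1a. For the remaining 2 the facing gene had fewer reads. Gm26694 had 13 and 14 reads, against 2 and 8 on Metrn, and Gm15337 had 8 and 20, against 0 and 0 on Arhgap26. The sources used here do not say how the strand of a single-exon read was set, and whether reads of a facing gene are among these was not tested.

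Overlap with coding genes was common. Of the 244 genes, 25 (10.2%) share bases with a coding exon on the same strand and 49 (20.1%) with one on the opposite strand. A further 36 (14.8%) overlap the span of a coding gene without a shared exon base, whether inside its introns or not. Another 12 (4.92%) have only their start within 1000 bases of a coding start on the other strand. The other 122 (50%) had none of these. Among the 6978 other genes the shares were 4.11%, 18.4%, 3.90%, 8.37% and 65.2%. Same-strand sharing was most frequent in the coding class (20 of 108) and opposite-strand sharing in the long non-coding class (25 of 64). Overlap without a shared exon base was most frequent in the long non-coding genes (15 of 64) and pseudogenes (15 of 70). Each gene was placed in the first category that applied, in the order given. The other genes are nearly all coding (6895 of 6978). Set against their own class, 39.1% of the long non-coding genes lay opposite a coding exon, against 47.1% of the 34 other long non-coding genes, and 71.4% of the pseudogenes had no overlap, against 61.9% of the 42 other pseudogenes. Same-strand sharing in the coding class was 18.5%, against 4.10% of other coding genes.

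**Figure D4:**
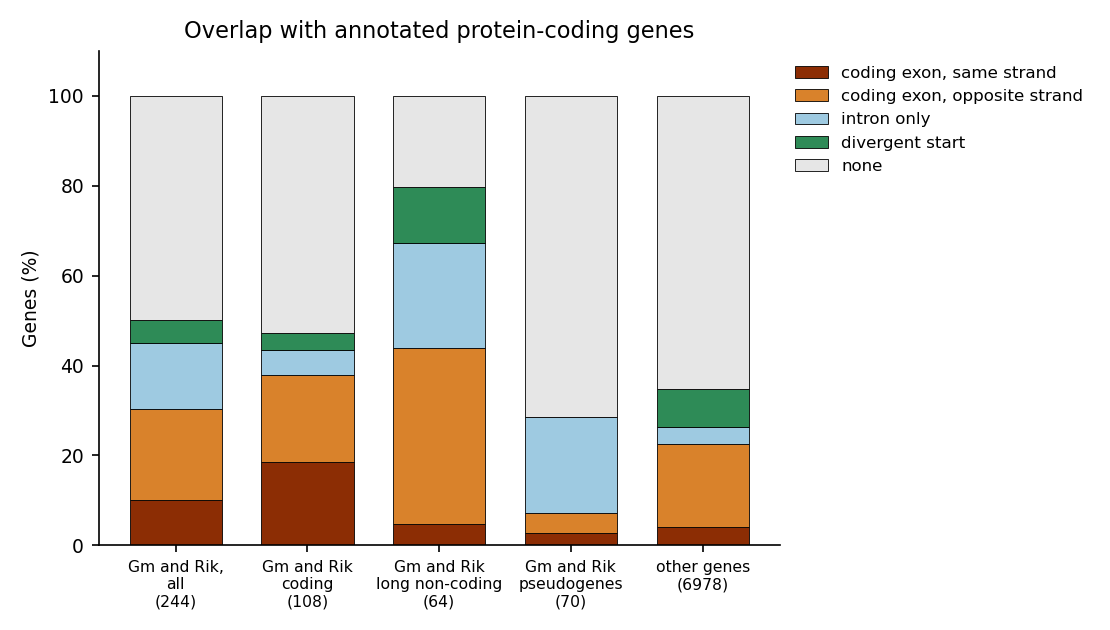
Percentage of genes in each category of overlap with annotated protein-coding genes, for all 244 Gm and Rik genes, their 3 main classes and, last, the 6978 other annotated genes with at least 20 reads. The category named intron only holds genes whose span overlaps that of a coding gene without a shared exon base. Of the bars shown, long non-coding Gm and Rik genes have the largest opposite-strand share (39.1%; other long non-coding genes, not drawn, 47.1%), and pseudogenes mostly overlap nothing (71.4%).

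Same-strand sharing included gene models that span neighbouring genes. Exons of 2 or more coding genes on the same strand are shared by 11 Gm and Rik genes, of which 4 had a read that touched exons of 2 or more of them. All 10 reads in replicate 2 and 19 in replicate 1 of 1810009A15Rik did so, as did all 14 and 8 of Gm38394, 5 of 16 and 3 of 23 of Gm20498, and 1 of 11 and 0 of 23 of Gm49325. For Gm38394 the coding genes with reads are 2 annotated entries of the same name, Zc3h11a (52 and 46 reads, and 6 and 10). Touching both is thus no sign that its reads join separate genes, and whether the other genes are separate was not tested. In the other 7 no read joined the genes. Gm45692, which shares exons with Rnf170 and Thap1, had 39 and 37 reads, all single-exon and all outside its annotated exons. Gm20388 runs from Usp10 to Galnt2 on chromosome 8, and 56 of its 73 reads in replicate 2 and 65 of 79 in replicate 1 touched none of its exons. Over all 244 genes, 333 reads in replicate 2 and 558 in replicate 1 did so, in 39 genes, and in 16 of these they were at least as many as the reads on exons.

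Shared bases with an opposite exon were few in some genes and many in others. 4833439L19Rik shares 73 bases with Simc1, D230025D16Rik (51 reads in replicate 2 and 98 in replicate 1) shares 416 bases with B3gnt9, and 2810004N23Rik (66 and 80) shares 88 bases with Gnpat. 1110008P14Rik (33 and 71) shares 728 bases with Ciz1, and Gm29773 (59 and 33) shares 461 bases with the nuclear pore gene Nup133. Single-exon reads were 15 in replicate 2 and 0 in replicate 1 for Gm29773, and at most 1 per library for 1110008P14Rik. As many reads of Gm29773, 15 in replicate 2 and 0 in replicate 1, touched none of its exons.

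Shared starts were about as frequent as in the other genes. In all, 39 of the 244 genes (16%) start within 1000 bases of a coding start on the opposite strand, against 18.0% of the other genes. 2310022A10Rik starts 15 bases from Pld3, 0610012G03Rik 19 bases from Ncbp2, 2810004N23Rik 87 bases from Gnpat, B230354K17Rik 139 bases from Cdc5l and 6030458C11Rik 166 bases from Drosha, the nuclear microRNA processing enzyme. Long non-coding genes had this arrangement most often (22 of 64), coding genes less (17 of 108), and no pseudogene had it. Set against their own class, these were 34.4% of the long non-coding genes, against 26.5% of others, and 15.7% of the coding genes, against 18.1%. Of other pseudogenes 4.76% had it.

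The libraries were then compared gene by gene by setting a gene's reads against the remaining reads (Fisher's exact test, both tails), adjusted by Benjamini-Hochberg over all 9032 genes with at least 10 reads. A gene was called at adjusted p below 0.05 and at least 2-fold on log2(CPM + 1). This compares the 2 libraries, not conditions. All 244 Gm and Rik genes passed the read minimum. Of these, 18 were higher in replicate 2 (7.38%; background 8.24% of all genes tested) and 20 were lower (8.20%; background 2.04%). Their median log2 ratio was -0.07, against 0.19 over all genes tested. The higher calls were near the background, and the lower calls were more frequent than it. That background is nearly all coding genes, and within a class the counts lay closer. Lower calls were 8 of 70 pseudogenes, against 4 of 42 other pseudogenes with at least 20 reads. They were 7 of 64 long non-coding genes, against 3 of 34 others, and 5 of 108 coding genes, against 140 of 6895 others.

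The split between higher and lower calls depended on scaling. With TMM scaling, which moved the median of all genes to -0.01, 14 were higher (5.74%; 4.90% of all genes) and 32 lower (13.1%; 4.17% of all genes). With DESeq2 size factors 14 were higher (5.74%; 4.05% of all genes) and 37 lower (15.2%; 5.07% of all genes), at a median of -0.08 over all genes. After centring the ratios within 20 bins of transcript length, 15 of the 211 genes with a length were higher (7.11%; 2.93% of all genes) and 6 were lower (2.84%; 1.75% of all genes). Summed slow fibre, smooth muscle and endothelial markers were higher in replicate 2. Summed immune markers (4 of 4 with reads) were lower there, at 14.5 CPM against 35.1 CPM in replicate 1, as were blood markers (4 of 4), at 103 CPM against 180 CPM. The part of these cell types in the calls was not tested.

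Among the lower genes, 8 of 20 (40%) were matched copies, against 29.1% of the 244 genes. Without Gm6829, whose reads lie off its exon, 7 lower copies were left. Gm12033 had 142 reads in replicate 2 and 1180 in replicate 1, or 121 and 782 CPM, a log2 ratio of -2.68 (Fisher's exact test, adjusted p = 3.47e-149), and stayed called after centring on length at -2.28. Other Gapdh copies, Gm14760 (5 and 26 reads) and Gm10359 (10 and 42), and the Rpl5 copy Gm15500 (92 and 276) lost the call with centring. Coding genes among the lower genes included 1700001O22Rik (10 and 45 reads, log2 ratio -1.69) and 1110051M20Rik (7 and 29, log2 ratio -1.54), which was not called on annotated transcripts alone (log2 ratio -1.29). 6430571L13Rik (25 and 80, log2 ratio -1.28) stayed called after centring on length, at -1.44. 1810022K09Rik, listed by RefSeq as Rbis, a ribosome biogenesis factor, had 22 and 67 reads, a log2 ratio of -1.20, and lost the call with centring. B230118H07Rik, listed as Iftap, had 52 and 155 and a log2 ratio of -1.19. Gm42418 was lower too, at a log2 ratio of -1.17.

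The genes higher in replicate 2 comprised 7 coding genes, 7 long non-coding genes and 4 pseudogenes. 4931406P16Rik, listed by RefSeq as Garre1, had 59 reads in replicate 2 and 17 in replicate 1, a log2 ratio of 2.06 (Fisher's exact test, adjusted p = 5.33e-08), and kept its call under all 10 other settings that tested it. 6430548M08Rik (31 and 10 reads, log2 ratio 1.85) and 2310057M21Rik (38 and 14, log2 ratio 1.70) lost the call after centring on length. 2310057M21Rik overlaps the span of Fgfr2 without a shared exon base. On annotated transcripts alone 6430548M08Rik had a log2 ratio of 0.69 and was not called either. Among genes on the strand opposite a coding gene, Gm16185 had 19 and 2 reads, a ratio of 12.2 (exact interval 2.95 to 108), Gm13601 had 18 and 2 (11.6, 2.77 to 103) and Gm15283 had 20 and 3 (8.58, 2.54 to 45.1). All reads of Gm16185 and Gm13601, and 19 and 3 of those of Gm15283, were of the Genomic class, and the wide intervals follow the small counts. Of the copies, Gm6563 (Sarnp) had 21 and 6 reads, and Gm13340 had 18 and 5, a call that was lost when the deeper library was thinned.

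**Figure D5:**
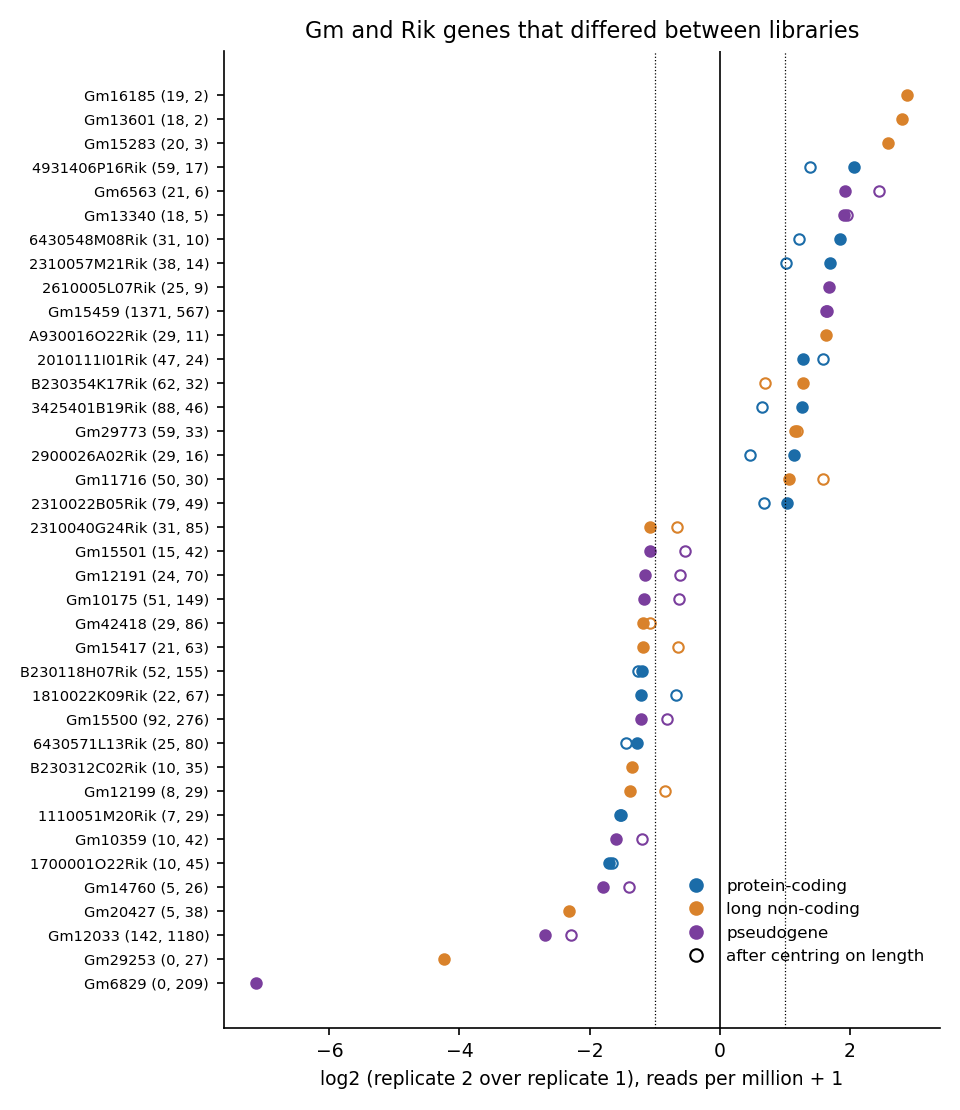
Log2 ratio of replicate 2 over replicate 1, on CPM plus 1, for the 38 Gm and Rik genes that differed between the libraries (filled), with reads in replicate 2 and replicate 1 in brackets, and the ratio after centring on transcript length (open) for the 29 with an annotated transcript read. Dotted lines mark 2-fold. Gm6829 and Gm29253 had no read in replicate 2, so their position depends on the added 1 and is no measured fold.

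No read was counted in replicate 2 for 2 of the lower genes. Gm29253 had 0 reads in replicate 2, against 27 in replicate 1, all of the Genomic class. This was at least 7-fold lower against the limit of 3 reads. Gm6829, annotated as a processed pseudogene of 1 exon (chrX:9327749-9328108, minus strand), had 0 and 209 reads, at least 54.2-fold lower. A 2-exon model with an intron at chrX:9329926-9332448, outside the annotated exon, had 104 reads in replicate 2, counted there under an unannotated gene, and 207 in replicate 1, counted under Gm6829. Counted together, the libraries had a log2 ratio of -0.64 (Fisher's exact test, adjusted p = 0.0016), below the 2-fold limit.

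Gm20427 showed the same pattern. It had 5 reads in replicate 2 and 38 in replicate 1, but 22 reads of replicate 2 with the intron chain of 32 reads of replicate 1 were counted under H2-Ke6. Counted together, the log2 ratio was -0.12 (Fisher's exact test, adjusted p = 0.931). Of 8 intron chains that the libraries placed under different gene names, 3 belonged to Gm16286, a coding model that shares exons with Txnl4a, a spliceosome component, on chromosome 18. Gm16286 had 133 and 153 reads. A related case lies next to the Gapdh copy Gm13394: 0 reads of replicate 2, and 164 of replicate 1, were counted under the ciliary gene Cfap77 on a 181-base single-exon model (chr2:28933430-28933610) that overlaps the end of Gm13394 by 1 base.

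The coding genes that overlap a Gm or Rik gene or start near it were called about as often as all genes on the higher side. Of 160 such genes 105 were tested, 9 were higher in replicate 2 (8.57%; background 8.24%) and only Cfap77 was lower (0.952%; background 2.04%), with a median log2 ratio of 0.28. Among the 9, Fgfr2, whose span overlaps that of 2310057M21Rik, had 64 reads in replicate 2, against 35 in replicate 1 (log2 ratio 1.20). Slc25a36, which holds Gm16185 on its other strand, had 37 and 23 (log2 ratio 1.00). Of the 60 genes matched in sequence 58 were tested, 1 was higher (1.72%) and 7 were lower (12.1%; background 2.04%), with a median log2 ratio of -0.42. The calls and ratios of both lists are those without centring on transcript length, and the part of length in them was not tested.

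Single-exon shares were compared between the libraries with the same test for genes with 2 or more annotated exons and at least 10 reads in each library, and called at adjusted p below 0.05 and 20 percentage points. Of 130 Gm and Rik genes tested, 3 were called (2.31%; background 0.332% of 6324 genes). All had a lower share in replicate 2. 2310002L09Rik had 12 single-exon reads of 101 in replicate 2 and 40 of 117 in replicate 1 (Fisher's exact test, adjusted p = 0.0135). 1110002E22Rik had 10 of 53 and 21 of 37 (adjusted p = 0.0257), and Gm49325 had 5 of 11 and 23 of 23 (adjusted p = 0.0298). Nearly all single-exon reads of these genes were of the Genomic class (12 and 40 such reads in 2310002L09Rik, 11 and 22 in 1110002E22Rik, 5 and 23 in Gm49325), so leaving that class out takes away the reads compared.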

How the data were processed

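Transcript abundance tables and transcript models of 2 long-read RNA libraries were used. The deposited counts are reads per transcript model, not normalized, with exon number and length per model, per the file headers; models without reads are not listed. The assembly is mm10 per the labels, and the annotation is GENCODE M21; for the aligner and software versions the sources used here state nothing. Deposited annotated transcripts were checked against GENCODE M21 and all 141862 were equal, so its coordinates, classes and transcript sequences were used.

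Reads were summed per gene and divided by the reads in the table. Tests used Python 3.11.15 and scipy 1.17.1, with scaling factors from edgeR 4.0.16 and DESeq2 1.42.0 under R 4.3.3, computed on the deposited counts. With 1 library each, Fisher's exact test took the place of a model with replicates. Copies were found with blastn 2.17.0. Current gene names come from RefSeq (GRCm38.p6, 38 names unmatched) and printed sequences from the GENCODE M21 transcripts. Replicate 2 had 1173233 reads and replicate 1 had 1509380; all intervals cover counting error only.

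Named genes follow a rule: the most read, the most read of each class, the most extreme called ratios, called single-exon shares, and the most read genes opposite or next to a coding gene. Other genes named, and the identity limits of the copies, were chosen after their values were seen. The genes and lists were chosen with earlier results of these data known. The other genes of each comparison include the 4 set aside.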

Additional observations from a re-analysis of the deposited data

How the results depend on the processing

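No paired analysis was possible because both libraries belong to 1 group. The 38 genes called between libraries became 8 with a 4-fold limit (4 higher, 4 lower) and 21 with centring on length (6 lower); lower calls numbered 32 with TMM and 37 with DESeq2 size factors. Without a read minimum, with a pseudocount of 5, on annotated transcripts, without genomic reads or with the deeper library thinned, the counts stayed within 1.5 times. Of the 38 calls, 34 remained with TMM, 34 with DESeq2 size factors and 13 of 29 with centring. On annotated transcripts 22 remained, 7 were lost and the rest were not tested. Without Genomic reads 31 remained, 1 was lost and the rest were not tested. No called gene changed direction. Matching intron chains, chosen after seeing the data, ended 2 calls.

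The single-exon share of 62.2% was 59.9% and 64.6% in single libraries, and the median over genes, 18.2% on summed reads, was 19.4% as the mean of the library medians. Between libraries 1 gene, Gm29773, was called for it without Genomic reads, a setting that removes most single-exon reads of the 3 genes called. The share of Gm29773 was higher in replicate 2 (25.4%, against 0% in replicate 1), the opposite direction to those 3. In replicate 2, 15 reads of Gm29773 touched none of its exons. With 20 reads required per library, 1110002E22Rik, 2310002L09Rik and Gm29773 were called, and Gm49325 was not. A limit of 10 percentage points gave the same 3 genes as the main setting.

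With a minimum of 10 reads there were 424 genes, of which 138 shared a coding exon, 82 started near a coding start and 121 had 1 exon. With 50 reads the numbers were 118, 29, 13 and 47. Coding exons were shared by 44 genes with 20 reads on 1 model and by 40 with 20 reads on annotated transcripts. A 5000-base window gave 59 shared starts. With 20 reads required in 1 library alone, 125 and 165 genes were left without replicate 1 and without replicate 2, of which 37 and 45 shared a coding exon, 14 and 22 started near a coding start and 47 and 63 had 1 exon.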
